A study of Mus musculus with 6 samples.

Results

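Described here are 8 genes of blood vessels that blood stem cells also express: Angpt1, Tek, Tie1, Eng, Procr, Esam, Emcn and Robo4. They were taken by symbol, and all 8 were found among the 15845 genes of a count table from 6 RNA-seq libraries of mouse bone marrow. The cells were LSK cells, sorted as lineage-negative, Sca1-positive and c-Kit-positive after magnetic depletion of lineage-marked cells, a gate that holds blood stem cells and multipotent progenitors. All mice were C57BL/6 with the genotype Mx1Cre; Jak2VF/VF, so the vehicle group carries the mutant allele too. Jak2VF stands for Jak2 V617F, the activating allele of human myeloproliferative neoplasms. Mx1Cre is a recombinase under an interferon-responsive promoter that is active beyond blood cells. The vehicle group (3 libraries) is labelled as given PBS, and the TP-3654 group (3 libraries) received that PIM kinase inhibitor at 150 mg/kg/day, both for 6 weeks. The design text calls the samples biological replicates. The labels used here give no age for the animals and do not say whether animals were pooled.

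Blood stem cells and endothelial cells arise from a shared embryonic source and keep part of a gene programme in common. Angiopoietin 1, the product of Angpt1, is a secreted ligand that activates the receptor tyrosine kinase TEK, also called TIE2. TIE1 is the sister receptor that pairs with TEK and tunes its signal, and in marrow the pathway is known for holding stem cells quiescent and attached to their niche. The other members encode surface proteins used to mark or study stem cells. Endoglin (Eng) is a co-receptor for TGF-beta and BMP ligands, and Procr encodes the endothelial protein C receptor. Esam is an adhesion molecule of cell junctions, Emcn encodes the sialomucin endomucin, and Robo4 is a roundabout receptor.

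Upstream DNA of 5 members is shown to let the reader see the starts of genes that were higher together (Tie1, Procr and Robo4) beside Tek and beside Eng, whose level was close in both groups. The stretches are those parts of RefSeq promoter windows (GRCm38.p6) that lie before every annotated start of the gene, read 5′ to 3′ on the gene's strand. Capitals mark GGAA or its reverse complement TTCC, the core of sites bound by ETS factors, which act in both stem cells and endothelium.
Tie1, chr4:118490062-118490099, minus strand: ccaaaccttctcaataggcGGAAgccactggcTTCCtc
Tek, chr4:94739039-94739085, plus strand: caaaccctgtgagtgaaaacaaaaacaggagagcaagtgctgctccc
Procr, chr2:155750967-155751116, plus strand: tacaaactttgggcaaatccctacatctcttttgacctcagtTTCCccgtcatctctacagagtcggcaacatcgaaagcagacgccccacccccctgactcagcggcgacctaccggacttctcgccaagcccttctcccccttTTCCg
Robo4, chr9:37401722-37401896, plus strand: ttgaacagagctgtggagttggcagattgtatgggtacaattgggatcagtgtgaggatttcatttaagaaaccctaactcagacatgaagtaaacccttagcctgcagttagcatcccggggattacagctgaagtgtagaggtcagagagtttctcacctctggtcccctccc
Eng, chr2:32646345-32646594, plus strand: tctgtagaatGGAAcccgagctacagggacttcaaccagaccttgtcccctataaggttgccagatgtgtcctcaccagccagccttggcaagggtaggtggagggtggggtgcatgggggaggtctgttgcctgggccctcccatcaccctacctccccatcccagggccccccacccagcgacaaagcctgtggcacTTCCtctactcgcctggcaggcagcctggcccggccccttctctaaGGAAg

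Motifs were counted in the whole windows of 300 bases (250 before and 50 after the start), which were found for 6 members: these 5 and Emcn. GGAA, on both strands, occurred 9 times in the Tie1 window, 6 times in that of Emcn, 4 times each in those of Eng, Procr and Robo4, and 2 times in that of Tek. Of 32851 windows of the same length, 96.0% held at least 1 GGAA, with a median of 3, and 1.59% held 9 or more. GATAA, a form of the GATA factor site, was found once each in the Tek and Emcn windows and in 25.4% of all windows, counted on both strands. The windows of Procr and Robo4 thus held as many GGAA as that of Eng, whose level was close in both groups, while that of Tie1 held more. Only 38 bases of the Tie1 window and 47 of the Tek window lie before every annotated start. Those parts held 2 and 0 GGAA, so the windows do not compare like upstream regions.

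The libraries held 20582057 to 25315596 counts. Levels are given as CPM, read counts scaled to a common library total with edgeR's TMM factors, and 3 counts corresponded to 0.116 to 0.153 CPM. All 8 members passed the filter on low counts, which kept 13149 genes. TP-3654 replicate 3 stood furthest from its group: its counts differed from those of the other TP-3654 libraries by 102 and 119 chi-square units per degree of freedom, against 17.4 to 55.7 for the other pairs within a group. Each result is therefore also given without it where that matters. The sort markers were present, with Kit at 365 to 581 and Ly6a (Sca1) at 40.0 to 69.2 CPM, while Cd3e, Ly6g and Cd8a were under 1 CPM in every library. Itgam (18.6 to 58.8 CPM), a gene of mature myeloid cells, was not absent.

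With TP-3654, 5 members (Angpt1, Tie1, Procr, Esam and Robo4) stood 1.63-fold to 2.16-fold above vehicle, higher in each treated library than in any vehicle library. Tek was also higher in each treated library, but by 1.35-fold and narrowly. Emcn, the least expressed member, overlapped between groups, and Eng stood at nearly the same level in both. None of the 8 passed edgeR's quasi-likelihood test after Benjamini-Hochberg adjustment over all genes, where 0.0% of tested genes did. At an unadjusted p under 0.05 there were 6 members, all higher, against 10.2% of all genes in that direction. DESeq2 on the same counts called 5 members higher, against 3.0% of all genes, and limma-voom called 0. Groups did not overlap for 6 members, all higher, against 14.3% of all genes in that direction. With library totals in place of TMM scaling this held for 5 members, without Tek. The median log2 fold change was 0.83 over the 8 members and 0.01 over all genes tested. The members were picked with such results known, so these shares describe them and are no test. In these sorted pools, more cells of a type and more RNA per cell cannot be told apart.

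**Figure D1:**
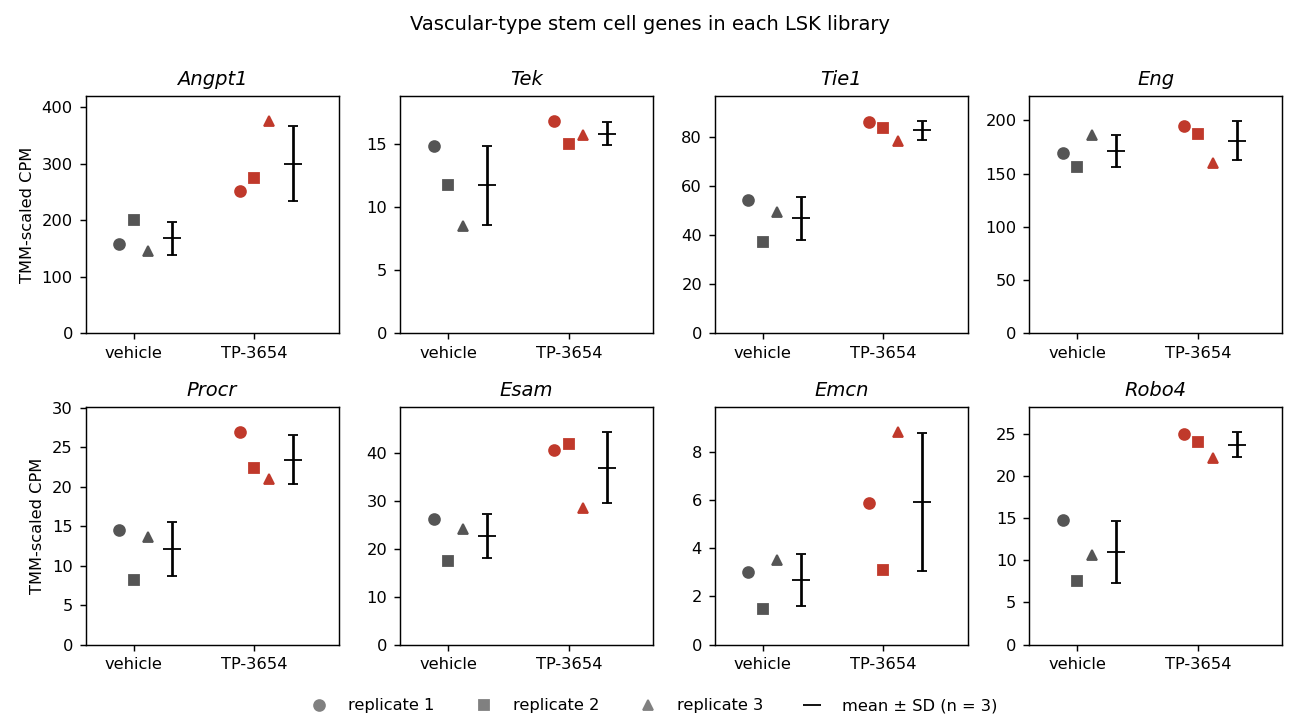
Level of each member in every library (vertical axes, TMM-scaled CPM, each starting at 0) for vehicle (grey) and TP-3654 (red). Symbols mark the replicate number, and the bar beside each group is the mean ± SD of 3 libraries. For Angpt1, Tie1, Procr, Esam and Robo4 the red points lie above all grey points, for Tek they do so narrowly, and for Emcn and Eng the groups overlap.

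Angpt1, the ligand, lies on chromosome 15 (GRCm38, 42424723 to 42676977 in GENCODE M21). It stood at 158, 200 and 145 CPM in vehicle replicates 1 to 3 and at 251, 275 and 375 CPM in TP-3654 replicates 1 to 3. The groups did not overlap, and TP-3654 replicate 3 was the highest library. The means were 168 ± 28.8 and 300 ± 65.8 CPM (SD, n = 3), with a log2 fold change of 0.84 (SE 0.18, 95% interval 0.43 to 1.25). The edgeR adjusted p was 0.0875 and the DESeq2 adjusted p 0.00171. Leaving out TP-3654 replicate 3 gave a log2 fold change of 0.64, the lowest of the fits that leave out 1 library. Of the 5205 bases in Angpt1 exons, 737 are shared with Gm17473, a gene on the opposite strand. The strand setting of the counting is not given in the sources used here, so reads of the pair cannot be told apart. In addition, 14.1% of the 31-base words in Angpt1 transcripts occur in transcripts of other loci.

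Tie1, the sister receptor of TEK, lies on the minus strand of chromosome 4 (118471191 to 118490061). Its level was 54.3, 37.3 and 49.5 CPM in vehicle replicates 1 to 3 and 86.1, 83.9 and 78.7 CPM in TP-3654 replicates 1 to 3. The treated libraries lay close together and well above the vehicle libraries, of which replicate 2 was the lowest. The means were 47.0 ± 8.76 and 82.9 ± 3.78 CPM, a log2 fold change of 0.82 (SE 0.15, 95% interval 0.49 to 1.15). Tie1 had the smallest p of the 8 members (edgeR unadjusted p = 0.000294, adjusted p = 0.0792, DESeq2 adjusted p = 0.000366) and ranked 48th of 13149 genes by p. Its log2 fold change stayed between 0.66 and 0.93 when any 1 library was left out.

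Tek, the angiopoietin receptor itself, lies on the plus strand of the same chromosome (94739289 to 94874976), far from Tie1. It stood at 14.8, 11.7 and 8.52 CPM in vehicle replicates 1 to 3 and at 16.8, 15.0 and 15.7 CPM in TP-3654 replicates 1 to 3. The highest vehicle library, replicate 1, lay just under the lowest treated one. The means were 11.7 ± 3.13 and 15.8 ± 0.915 CPM, and the log2 fold change of 0.44 (SE 0.21, 95% interval -0.04 to 0.92) missed both tests (edgeR adjusted p = 0.327, DESeq2 adjusted p = 0.312). It was 0.64 without vehicle replicate 1 and 0.26 without vehicle replicate 3. Per kilobase of exon, the ratio of Tie1 to Tek within a library was 3.52, 3.05 and 5.57 in vehicle and 4.91, 5.37 and 4.81 with TP-3654. These ratios overlapped, and the difference between the responses of the sister receptors was not tested.

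Procr, the protein C receptor, is encoded on chromosome 2 (155751117 to 155755471). It stood at 14.5, 8.20 and 13.6 CPM in vehicle and at 26.9, 22.4 and 21.0 CPM in TP-3654 replicates 1 to 3. All treated libraries lay above all vehicle libraries. The means were 12.1 ± 3.43 and 23.4 ± 3.10 CPM, with a log2 fold change of 0.95 (SE 0.23, edgeR adjusted p = 0.106, DESeq2 adjusted p = 0.00611). DESeq2 no longer called Procr without TP-3654 replicate 1 (adjusted p = 0.0783). Robo4, the roundabout receptor, is encoded on chromosome 9 (37401897 to 37415115). It stood at 14.8, 7.48 and 10.6 CPM in vehicle and at 24.9, 24.0 and 22.1 CPM with TP-3654. Its vehicle libraries spread about the mean by 33.6% (SD) and its treated libraries by 6.17%. The treated mean of 23.7 ± 1.46 CPM was 2.16-fold above the vehicle mean, with an SD of 3.69 CPM in vehicle and a log2 fold change of 1.11 (SE 0.23, edgeR adjusted p = 0.0831, DESeq2 adjusted p = 0.00102). The log2 fold change of Robo4 was 0.88 without vehicle replicate 2, its lowest library, and 1.39 without vehicle replicate 1, its highest vehicle library.

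Esam, the junctional adhesion molecule, lies 126 kb from Robo4 on the same strand of chromosome 9 (37528078 to 37538319). It stood at 26.2, 17.5 and 24.2 CPM in vehicle and at 40.5, 41.8 and 28.4 CPM in TP-3654 replicates 1 to 3. The groups did not overlap, but TP-3654 replicate 3 lay nearer to the vehicle libraries than to the other treated ones. The means were 22.6 ± 4.58 and 36.9 ± 7.38 CPM, with a log2 fold change of 0.71 (SE 0.20, edgeR adjusted p = 0.151, DESeq2 adjusted p = 0.0357). Esam was the least stable of the 5 DESeq2 calls. It was lost without vehicle replicate 2 (adjusted p = 0.201), vehicle replicate 3 (0.0877), TP-3654 replicate 1 (0.174) or TP-3654 replicate 2 (0.175), and kept in the fits lacking vehicle replicate 1 or TP-3654 replicate 3.

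Emcn, the sialomucin gene on chromosome 3 (137341067 to 137432185), was covered by 33 to 173 counts per library. It stood at 3.03, 1.49 and 3.53 CPM in vehicle and at 5.88, 3.10 and 8.84 CPM with TP-3654. TP-3654 replicate 2 lay among the vehicle libraries, and replicate 3 was the highest. The log2 fold change of 1.14 had the widest error of the 8 (SE 0.44, edgeR adjusted p = 0.252, DESeq2 adjusted p = 0.125). It was 0.72 when TP-3654 replicate 3 was left out. Leaving out replicate 2 of that group gave 1.45, and there DESeq2 called it (adjusted p = 0.0349). Eng, the TGF-beta co-receptor gene on chromosome 2 (32646595 to 32682669), stood at 169, 156 and 186 CPM in vehicle and at 195, 187 and 160 CPM with TP-3654. The groups overlapped throughout. The log2 fold change was 0.08 (SE 0.12, edgeR adjusted p = 0.731), with a 95% interval of -0.19 to 0.35. The intervals of Tek (-0.04 to 0.92), Emcn (0.14 to 2.14) and Esam (0.25 to 1.16) overlapped it. Within a library, the ratio of Esam to Eng per kilobase was 0.219, 0.158 and 0.183 in vehicle and 0.294, 0.315 and 0.251 with TP-3654, with no overlap.

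**Figure D2:**
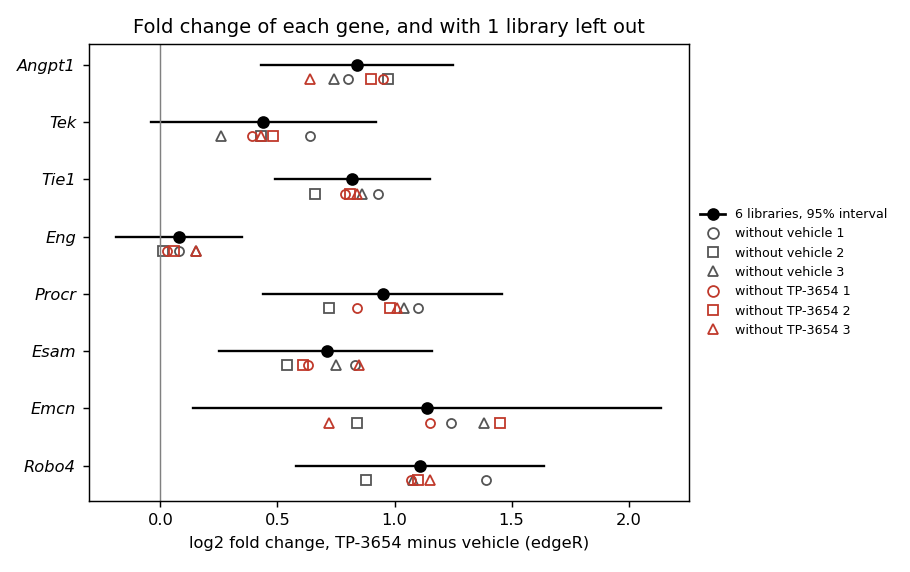
Log2 fold change of TP-3654 over vehicle from edgeR (horizontal axis) for each member, with its 95% interval as a black line, and the values with 1 library left out as open symbols below it. The intervals of Tek and Eng include 0, and Emcn has the widest interval and moves most, between 0.72 and 1.45.

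The vehicle libraries did not order the members alike. Vehicle replicate 2 held the lowest vehicle level of Tie1, Procr, Robo4, Esam, Emcn and Eng and the highest of Angpt1. Among treated libraries, replicate 3 held the lowest Tie1, Procr, Robo4, Esam and Eng and the highest Angpt1 and Emcn. Angpt1 was thus highest where Tie1, Procr, Robo4, Esam and Eng were lowest within each group, as a description of 3 libraries per group. Tek, the receptor of this ligand, did not follow that order. It was lowest in vehicle replicate 3 (8.52 CPM) and in TP-3654 replicate 2 (15.0 CPM). Angpt1 per kilobase was 2.75, 5.08 and 2.77 times Tie1 in vehicle and 2.76, 3.09 and 4.50 times Tie1 with TP-3654.

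Levels were compared between genes as CPM per kilobase of exon. In vehicle, Eng was the highest (42.1 ± 3.74 CPM per kilobase), followed by Angpt1 (32.3 ± 5.53), Tie1 (9.56 ± 1.78), Esam (7.89 ± 1.60) and Procr (5.97 ± 1.69). Tek (2.48 ± 0.664), Robo4 (2.07 ± 0.695) and Emcn (0.496 ± 0.197) were the lowest. The library ranges of Tie1 and Esam, of Esam and Procr, and of Tek and Robo4 overlapped in vehicle, so their order is not resolved there. With TP-3654, Angpt1 (57.7 ± 12.7 CPM per kilobase) lay above Eng (44.6 ± 4.52) and Robo4 (4.47 ± 0.276) above Tek (3.36 ± 0.194), with ranges that did not overlap. Tie1 (16.9 ± 0.768 CPM per kilobase) lay above Esam (12.9 ± 2.57), whose range overlapped that of Procr (11.5 ± 1.52). Emcn (1.10 ± 0.531) remained the lowest. The transcript of the ligand was thus counted at many times the level of its receptor transcript in every library, from 9.68 to 21.6 times Tek per kilobase. Protein was not measured, and the sequence that Angpt1 shares with other loci bears on this ratio too.

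**Figure D3:**
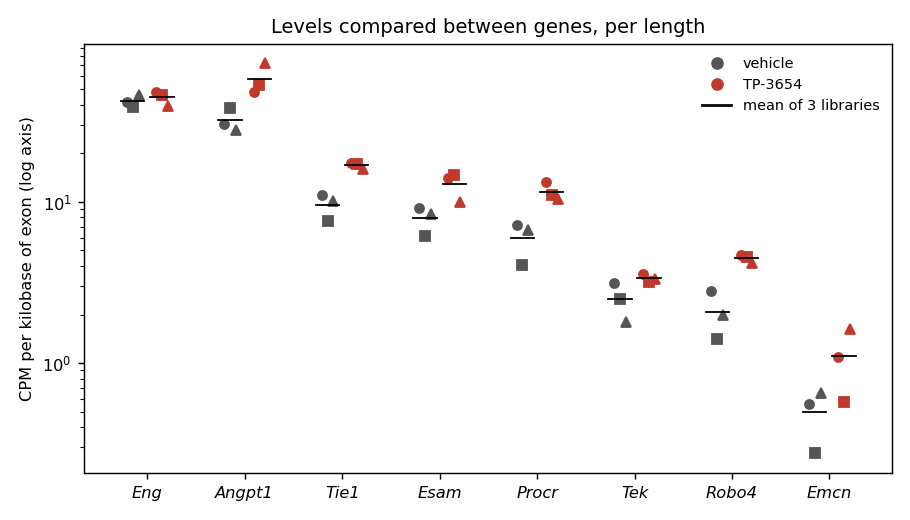
Level of each member per kilobase of exon (log axis, CPM per kilobase) in vehicle (grey) and TP-3654 (red) libraries, with the mean of 3 libraries as a black line, ordered by the vehicle mean. Eng and Angpt1 stand highest, and Emcn is the lowest in both groups.

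The genes around the members did not share 1 direction. Among tested genes whose start lies within 200 kb of that of Tie1, the mitotic activator Cdc20, at 52.7 kb, stood at 165 ± 16.0 CPM in vehicle and at 112 ± 24.1 CPM with TP-3654 (log2 fold change -0.56, edgeR adjusted p = 0.157), with groups that did not overlap. A further 7 had log2 fold changes between -0.79 and 0.44. Around Tek, 3 tested genes had fold changes between -0.21 and 0.11 on the log2 scale, all with groups that overlapped. Between Robo4 and Esam lie Robo3 (log2 fold change 0.26) and Msantd2 (0.16), and both overlapped between groups. Vsig2, 11.2 kb beyond the start of Esam, stood at 1.94 ± 0.809 and 5.39 ± 3.43 CPM and overlapped too (log2 fold change 1.46, SE 0.50, edgeR adjusted p = 0.204).

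The partners of these receptors were read against all genes tested, of which 10.2% were higher and 6.84% lower at an unadjusted p under 0.05 in edgeR. Of 16 other genes of angiopoietin and TIE signalling, 9 were tested, and edgeR gave 0 an unadjusted p under 0.05, with 0 called by DESeq2 and a median log2 fold change of 0.08. Dok2, an adaptor that binds active TEK, was higher in each treated library (35.3 to 40.2 CPM in vehicle and 41.2 to 50.4 CPM with TP-3654, log2 fold change 0.25, edgeR adjusted p = 0.357), and the adaptor Grb2 was lower in each (log2 fold change -0.13). Klf2, a flow-responsive factor, had the smallest p in the list but followed 1 library, with 47.9 CPM in vehicle replicate 3 and 1.07 to 8.87 CPM in the others. Angpt2, the other main ligand, stood at no more than 0.409 CPM in any library, and Ptprb, the phosphatase that restrains TEK in endothelium, had 0 counts in all.

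Among 11 genes of SLIT and ROBO signalling, 6 were tested. Srgap3, a GTPase-activating protein downstream of ROBO receptors, was the 1 member with an unadjusted p under 0.05 (log2 fold change 0.46, SE 0.18, edgeR adjusted p = 0.258), and its groups overlapped. Slit1, Slit2 and Slit3, the ligands, stayed under 1 CPM in every library. Of 14 partners of endoglin, 10 were tested, and 3 were higher and 2 lower at an unadjusted p under 0.05. The activin receptor Acvr2a stood at 3.78 to 4.73 CPM in vehicle and 6.43 to 8.89 CPM with TP-3654 (log2 fold change 0.88, SE 0.24, edgeR adjusted p = 0.136, DESeq2 adjusted p = 0.0293). Smad5 (log2 fold change 0.35) was higher, and the ligand gene Tgfb1 (-0.48) lower, in each treated library. Acvrl1, the ALK1 receptor that endoglin serves in vessels, stayed at 1.56 to 2.64 CPM. Of 10 genes of the protein C pathway, 5 were tested, and 0 had an unadjusted p under 0.05 in edgeR or were called by DESeq2. Thrombomodulin (Thbd) was lower in each treated library (log2 fold change -0.69, SE 0.31), and the thrombin receptor F2r had nearly the same level in both groups (152 to 190 and 141 to 190 CPM).

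A wider list of 24 adhesion and receptor genes that vessels and stem cells can share held genes higher and genes lower with TP-3654. Of 21 tested, 5 were higher and 4 lower at an unadjusted p under 0.05 in edgeR, against 10.2% and 6.84% of all genes. After adjustment 0 passed in edgeR. Against 3.0% of all genes called higher, DESeq2 called 3 genes of this list, all higher. These were the adrenomedullin receptor gene Calcrl (log2 fold change 0.72, SE 0.15, edgeR adjusted p = 0.0831), the adhesion receptor Adgrl4 (0.70, SE 0.15, adjusted p = 0.0831) and the junction protein gene F11r (0.88, SE 0.20, adjusted p = 0.0971). Icam2 (log2 fold change -0.42) and Nrp2 (-1.08) were lower in each treated library, and both were named after their values were seen. Pecam1 (120 to 161 CPM), Cd34 (783 to 1090 CPM) and Vwf (22.5 to 52.4 CPM), also named after their values were seen, overlapped between groups. The list's median log2 fold change was 0.11, against 0.83 for the 8 members.

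The defining markers of endothelial cells were mostly at or near 0. Of 18 such genes, 16 were in the table, and 10 of them stayed under 1 CPM in every library. The cadherin gene Cdh5 reached at most 0.360 CPM, Cldn5 had a single count in 1 library, and Mmrn2 had 0 counts in all. The receptor genes Kdr (0.664 to 2.64 CPM) and Flt1 (0.46 to 1.67 CPM) were detected in every library and overlapped between groups. The summed level of the list was 14.4 to 17.6 CPM in vehicle and 11.9 to 15.0 CPM with TP-3654, against 440 to 455 and 647 to 710 CPM for the members. Plvap, the most abundant endothelial marker here, was lower in each treated library (7.16 to 8.28 and 2.20 to 3.84 CPM, log2 fold change -1.27, SE 0.27, edgeR adjusted p = 0.0841). Apln, the ligand apelin, was higher in each (1.38 to 2.39 and 4.10 to 4.45 CPM, log2 fold change 1.20, SE 0.30, edgeR adjusted p = 0.117). The matrix gene Vwa1 followed with a log2 fold change of 0.85.

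Marrow stroma is a known source of angiopoietin 1. Of 15 measured stromal genes, 9 stayed under 1 CPM in every library, among them Lepr, Pdgfra, Kitl, Adipoq and Dcn. Others did not. Cxcl12 reached 3.15 CPM in TP-3654 replicate 1, Col1a1 2.12 CPM in vehicle replicate 2 and Vcam1 6.86 CPM in vehicle replicate 1. All of these overlapped between groups except Dcn, which was higher in each treated library. The summed level of the 15 genes was 147 to 159 CPM in vehicle and 195 to 261 CPM with TP-3654. Most of it came from Pdgfrb (61.2 to 72.4 and 88.1 to 148 CPM, log2 fold change 0.89, SE 0.19, edgeR adjusted p = 0.0875) and Runx2 (75.2 to 81.1 and 97.4 to 108 CPM, log2 fold change 0.42, SE 0.10, edgeR adjusted p = 0.110). Col1a2 had a log2 fold change of -1.05 (SE 0.51) and reached at most 2.39 CPM. Platelet lineage genes, of which 11 of 14 were tested, had a median log2 fold change of -0.42. At an unadjusted p under 0.05 in edgeR 2 were higher and 1 lower, against 10.2% and 6.84% of all genes. Itga2b (log2 fold change 0.36) and Nbeal2 (0.47) were higher and Treml1 (-1.03) lower in each treated library.

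The members moved beside a change in myeloid and stem cell markers. The summed level of 15 granulocyte-monocyte progenitor genes was 16700, 15100 and 13600 CPM in vehicle replicates 1 to 3 and 6050, 10200 and 4350 CPM in TP-3654 replicates 1 to 3. At an unadjusted p under 0.05, 11 of the 15 were lower and 0 higher, against 6.84% of all genes lower, with 6 called lower by DESeq2 (1.92% of all genes) and 0 by edgeR after adjustment. Of these genes 12 were lower in each treated library than in any vehicle library, against 11.6% of all genes. Cebpa (log2 fold change -0.86), Calr (-0.61) and Ctsg (-1.31) had the smallest p. Calr encodes a chaperone that is not particular to these progenitors. It added 2510 ± 151 CPM to the vehicle sum and 1650 ± 259 CPM to the treated sum, and DESeq2 called it (adjusted p = 0.00205). Of 23 tested genes that mark long-term stem cells, 11 were higher and 0 lower at that level, against 10.2% of all genes higher. DESeq2 called 9 of them higher (3.0% of all genes), edgeR called 0, and the median log2 fold change was 0.55. Hlf (0.92), Clec1a (1.89) and Fgd5 (1.79) led that list. Slamf1 (log2 fold change -0.35, edgeR adjusted p = 0.447), the CD150 gene, lay lower in each treated library, and Hoxb5 (-0.10) overlapped. Both were named after their values were seen. The part of these shifts in the members' values was not tested.

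Among treated libraries, TP-3654 replicate 2 had the highest summed level of the granulocyte-monocyte progenitor genes (10200 CPM, of which Mpo gave 4630 CPM). Csf3r of that list was higher in TP-3654 replicate 3 (308 against 236 CPM). TP-3654 replicate 2 had the lowest treated levels of Tek and Emcn. Its Tie1 (83.9 CPM) and Robo4 (24.0 CPM) lay between those of the other treated libraries, and its Esam (41.8 CPM) was the highest. A link between these levels was not tested. Among 17 tested transcription factors shared by stem cells and endothelium, 4 were higher and 1 lower at an unadjusted p under 0.05 in edgeR. The shares of all genes were 10.2% and 6.84%. Mecom (log2 fold change 1.04, SE 0.19), Meis1 (0.63, SE 0.12) and the ETS factor Erg (0.50, SE 0.13) were the leading ones (edgeR adjusted p = 0.0792, 0.0792 and 0.117). The ETS factor Fli1 (81.9 to 104 CPM) and the SCL gene Tal1 (176 to 247 CPM), chosen after their values were seen, overlapped between groups. Of the sort markers, Kit (log2 fold change 0.43) was higher in each treated library and Ly6a (0.28) overlapped. Flt3 and Ptprc were not among the markers named for the sort. Flt3 was higher in each treated library (log2 fold change 0.78, edgeR adjusted p = 0.130, DESeq2 adjusted p = 0.012), and Ptprc (0.22) overlapped.

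**Figure D4:**
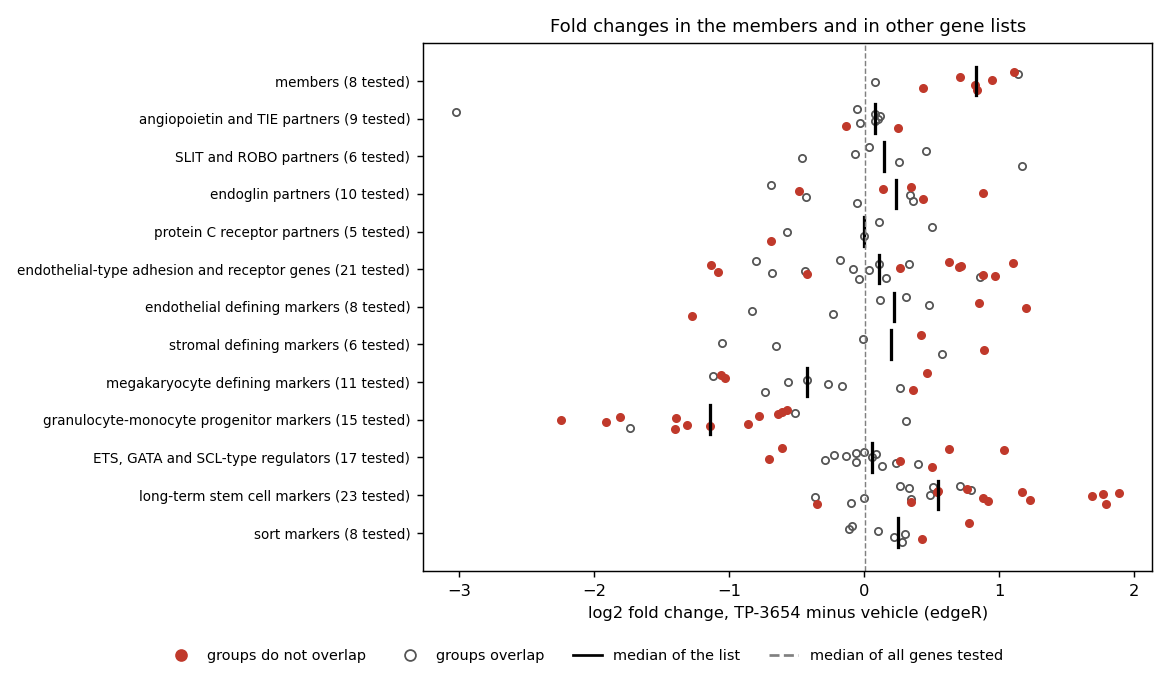
Log2 fold change of TP-3654 over vehicle (horizontal axis) for the tested genes of each list, filled where the 3 treated and 3 vehicle libraries do not overlap, with the list's median as a black bar and the median of all genes as a dashed line. The members' median is 0.83, that of the long-term stem cell markers 0.55 and that of the granulocyte-monocyte progenitor markers -1.14, while those of the receptor partner lists are at most 0.24.

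Among 10821 other genes of sufficient level, the genes whose log2 CPM over the 6 libraries was most like that of Tie1 were Maged1 (Pearson r = 0.997), Scml4 (0.994) and Myo5c (0.994). Maged1 stood at 28.8 ± 6.28 CPM in vehicle and 59.2 ± 4.46 CPM with TP-3654. For Tek they were Nbea (Pearson r = 0.993), the noncoding RNA Ftx (0.990) and Zfp60 (0.990). Nbea stood at 1.40 ± 0.996 and 3.75 ± 0.888 CPM. These r values describe 6 libraries in 2 groups, were picked as the highest of many, and are given without a test.

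The authors' deposited table of their own comparison calls the same 5 members higher at an adjusted p under 0.05, where it calls 2.85% of its genes higher. In the authors' deposited table the log2 fold change was 0.77 for Angpt1 (adjusted p = 0.000378), 0.98 for Procr (0.00377), 0.93 for Tie1 (0.0103), 0.80 for Esam (0.0294) and 1.01 for Robo4 (0.0342). Tek (0.49, adjusted p = 0.214), Emcn (0.76, 0.481) and Eng (0.12, 0.704) did not pass in the authors' deposited table. Its values are not those of the deposited counts. The mean of normalized counts in the authors' deposited table lay within 1% of that computed from the counts for 2.36% of 12845 genes, and for the members it was 0.864 (Eng) to 1.17 (Emcn) times as high. Between the authors' values and DESeq2 on the counts, log2 fold changes across these genes had a Pearson r of 0.655, and 1763 genes had opposite signs. The reason for the mismatch is not known. Both tables are labelled as the same comparison of these samples, so the authors' table is no separate support.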

How the data were processed

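Poly(A) RNA of 6 sorted LSK samples was sequenced. The authors deposited raw read counts per Entrez gene, 1 column per library. They also deposited a comparison table that holds, per the file headers, a signal column (mean of counts divided by size factors), log2 fold changes with standard errors, a Wald statistic as a score, and raw and adjusted p-values. The submitters' processing notes name HISAT2 2.1.0, SAMtools 1.9.0, DESeq2 and the build GRCm38 (mm10). Which counter, annotation and strand setting were used is not given in the sources used here. Symbols came from the authors' table for 12995 genes and from RefSeq for 2844, and 6 had none. 

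Tests used edgeR 4.0.16 in R 4.3.3 (TMM, filterByExpr, robust quasi-likelihood F test, Benjamini-Hochberg over 13149 genes, called under 0.05). The SE is the size of the log2 fold change divided by the root of F, and 95% intervals use the t quantile of the fit's degrees of freedom. Alternatives were DESeq2 1.42.0, limma-voom (limma 3.58.1), other scalings, filters and fits, and leaving out each library. Exon lengths, neighbours and shared 31-base words came from GENCODE M21 (GRCm38). The replicate numbers do not pair the libraries by any label. P-values measure the spread between 3 samples per group. Named genes were the 8 members, the up to 3 genes with the smallest p in each of 12 further lists, defining markers, neighbours within 200 kb, and the 3 genes most like Tie1 and Tek. Genes beyond that rule, picked with their values in view, were Angpt2, Ptprb, Slit1, Slit2, Slit3, Acvrl1, F2r, Icam2, Nrp2, Pecam1, Cd34, Vwf, Slamf1, Hoxb5, Fli1 and Tal1. Vcam1 and Csf3r were picked in the same way. Members and lists were chosen with earlier results of these data known. Some genes of these lists and neighbourhoods are not reported here.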

Additional observations from a re-analysis of the deposited data

How the results depend on the processing

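Under 15 alternative settings no member changed direction, and edgeR and limma-voom called 0 members over all genes in each. DESeq2 called 5 members. The number of genes called over all genes was 0 with edgeR, 5 without the low-count filter, 657 with DESeq2 and 3 with the replicate number as a replicate block. In that paired fit 0 members were called and 6 had an unadjusted p under 0.05, as without it. The same-numbered libraries did not deviate together (correlations of -0.012, -0.015 and 0.031 across genes). Leaving out 1 library gave 0 to 31 genes called, and 5 to 6 members at an unadjusted p under 0.05. DESeq2 without 1 library, added after seeing the data, called 3 to 5 members, and Angpt1, Tie1 and Robo4 were called in each of those fits. Depth limits Emcn most, with 33 counts in its lowest library.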
